A study of Homo sapiens with 12 samples.

Results

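The human protein-coding genes that stretch over more than 500 kb of the genome were examined in HK-2 cells treated with drugs that injure the kidney tubule. A gene was a member when it was protein-coding, its span from first to last annotated base was above 500000 bp, it had at least 10 counts in at least 3 of the 12 samples, and its name did not begin with COL, LAM, ITG or CDH. These criteria chose 194 of the 58735 genes in the table. Of 317 protein-coding genes above 500 kb, 121 had too few counts and 2 were left out by name. The members were thus selected on span and on a floor of counts in any group, and a gene expressed in only 1 group could pass through that group.

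HK-2 is an established, immortalised line of human proximal tubular epithelial cells, cultured here as 1 line. RNA was sequenced in 12 samples, with 3 samples in each of 4 groups. Control cells received water, and the other groups were treated for 48 h with iohexol at 75 mg I/mL, an iodinated X-ray contrast medium, with cisplatin at 5 μM, a platinum drug used against tumours, or with vancomycin at 4 mM, a glycopeptide antibiotic. The labels number the samples 1 to 3 in each group and do not say that they came from separate cultures, so the p-values measure the spread between these samples, which may be technical. In bulk RNA, fewer cells expressing a gene and less of its RNA per cell cannot be told apart.

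Total counts were between 14057282 and 18177109 per sample, so 3 counts, the limit that a count of 0 allows, stood for 0.177 to 0.218 counts-per-million (CPM) and cover counting error only. CPM were scaled by the TMM factors of all 12 samples. Of the proximal tubule markers examined, 3 of 14 reached 1 CPM in the control group, with GGT1, a brush border enzyme, at a mean of 189 CPM, while LRP2, SLC5A12 and SLC22A6 had no counts there. The markers of renal epithelium and the cytoskeleton were present (8 of 8 at 1 CPM or more), with PAX2 at a mean of 1.47 CPM. The highest of them was VIM, which is not specific to epithelium, at 630 CPM. The markers of other kidney segments were below 1 CPM (0 of 7), and 1 of 6 immune and endothelial and 2 of 6 fibroblast markers reached it.

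A long human gene is nearly all intron. RNA polymerase II has to copy the whole span before a full transcript is released, which for the longest genes takes many hours, and the introns are then removed so that the messenger RNA is no longer than that of many short genes. Such genes are known for their dependence on elongation factors and topoisomerases, for lying in common fragile sites, where chromosomes break when replication is slowed, and for their frequent roles in cell adhesion, the cytoskeleton and signalling. As background, cisplatin binds DNA at purine bases, and its adducts are known to stop RNA polymerase. None of the samples measured adducts or transcription itself.

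The 194 members had a median span of 704 kb, from 501 kb for KCNAB1 to 2298 kb for PTPRD, and 34 were longer than 1000 kb. Their exons together took up a median of 1.51% of the span, against 15.8% over the protein-coding genes of the table. The median member had 18 exons, a longest intron of 229 kb and a first intron of 95.1 kb. In 11 members, more than 10% of the exon length lay in another gene's exons (among them GRM5, PHACTR1, KALRN, ARHGAP24 and FSTL5), so their counts could be shared with that gene; the strand setting of the counting is not given in the sources used here.

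The promoters of 5 members are shown because these genes had the smallest p among those that fell and those that rose with cisplatin and have a RefSeq promoter within 1 kb of the gene's start: PTPRG, NCKAP5 and LPP fell, and PCDH9 and KIAA1217 rose. Each runs 5′ to 3′ on the gene's strand from 250 bases before to 50 after a RefSeq transcript start (GRCh38.p14), and capitals mark CG dinucleotides. They lie at chr3:61561321-61561620 (plus strand, PTPRG), chr2:133568414-133568713 (minus strand, NCKAP5), chr3:188152771-188153070 (plus strand, LPP), chr13:67230287-67230586 (minus strand, PCDH9) and chr10:23694477-23694776 (plus strand, KIAA1217).
PTPRG: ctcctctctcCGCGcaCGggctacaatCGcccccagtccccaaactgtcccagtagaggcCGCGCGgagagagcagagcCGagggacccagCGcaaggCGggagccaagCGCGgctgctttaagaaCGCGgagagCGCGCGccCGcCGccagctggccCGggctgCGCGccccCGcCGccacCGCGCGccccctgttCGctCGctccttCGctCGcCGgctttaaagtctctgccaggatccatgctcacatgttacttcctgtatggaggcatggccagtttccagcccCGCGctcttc
NCKAP5: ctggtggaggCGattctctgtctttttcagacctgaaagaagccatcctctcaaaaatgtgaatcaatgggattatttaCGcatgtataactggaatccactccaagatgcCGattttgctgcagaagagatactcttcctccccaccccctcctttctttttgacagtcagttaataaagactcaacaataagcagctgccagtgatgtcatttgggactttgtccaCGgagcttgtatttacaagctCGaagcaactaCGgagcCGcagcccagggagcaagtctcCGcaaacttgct
LPP: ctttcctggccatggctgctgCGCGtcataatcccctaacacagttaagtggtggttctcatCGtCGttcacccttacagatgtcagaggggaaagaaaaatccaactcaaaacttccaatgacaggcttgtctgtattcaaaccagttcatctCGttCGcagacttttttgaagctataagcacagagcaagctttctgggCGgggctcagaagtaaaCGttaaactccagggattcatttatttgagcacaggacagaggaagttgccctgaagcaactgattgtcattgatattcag
PCDH9: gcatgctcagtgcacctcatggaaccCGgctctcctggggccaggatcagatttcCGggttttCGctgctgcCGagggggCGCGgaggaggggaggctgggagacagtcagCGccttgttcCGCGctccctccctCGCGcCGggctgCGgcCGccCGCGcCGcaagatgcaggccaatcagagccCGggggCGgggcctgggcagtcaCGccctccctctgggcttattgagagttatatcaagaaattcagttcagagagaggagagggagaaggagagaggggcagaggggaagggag
KIAA1217: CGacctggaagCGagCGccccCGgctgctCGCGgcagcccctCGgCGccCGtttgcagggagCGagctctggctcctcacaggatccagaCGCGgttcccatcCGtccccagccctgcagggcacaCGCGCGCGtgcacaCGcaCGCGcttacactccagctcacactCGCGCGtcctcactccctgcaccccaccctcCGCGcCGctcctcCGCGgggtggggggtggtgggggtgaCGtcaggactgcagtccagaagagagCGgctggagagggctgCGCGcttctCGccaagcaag

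CG dinucleotides numbered 34 in PTPRG, 8 in NCKAP5, 8 in the LPP promoter shown, 20 in PCDH9 and 33 in KIAA1217. Other LPP promoters within 1 kb of the gene's start held 19 and 36. Promoters rich and poor in CG both occurred among the genes that fell. The median was 15 CG over all 264 promoters of members called lower with cisplatin and 6 CG over the 38 of members called higher. Genes with many promoters weigh more in these medians. The members called higher include GRM5 and DLG2, which were selected only through the cisplatin samples. Within 1 kb of the gene's start, promoters of members called higher held from 8 CG (DLG2) to 41 CG (HDAC9). RefSeq promoters matched 166 of the 194 members by current or older symbol, 382 promoters in all, and 96 members had 2 or more. The letters TATAAA, searched on both strands as were the other motifs, none of which contains another, were in 12.3% of the members' promoters and in 11.5% of all 35116 promoters. GGGCGG, the core letters of a GC box, was in 43.5% against 45.0%, CCAAT in 32.2% against 34.6%, and CACGTG in 5.50% against 7.26%. By cisplatin call, GGGCGG was in 47.3% of the promoters of members that fell and in 18.4% of those of members that rose. The latter come from 10 genes. PCDH9, HDAC9, KALRN, GRM5, SYNE1, GALNTL6 and DLG2 each held GGGCGG in a promoter, while KIAA1217, NAV3 and DMD did not. Genes with many promoters, such as DLG2 and DMD, weigh more in these shares as well. These shares are descriptions of letters in the window, and which start was used in the cells was not measured.

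Counted as a whole, the members held 0.646% to 0.678% of the counts in the control samples and 0.585% to 0.670% with iohexol. The share was 0.397% to 0.482% with vancomycin and 0.272% to 0.291% with cisplatin. The 3 cisplatin samples were the lowest of the 12, the vancomycin samples came next, and the iohexol samples overlapped the controls.

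**Figure D1:**
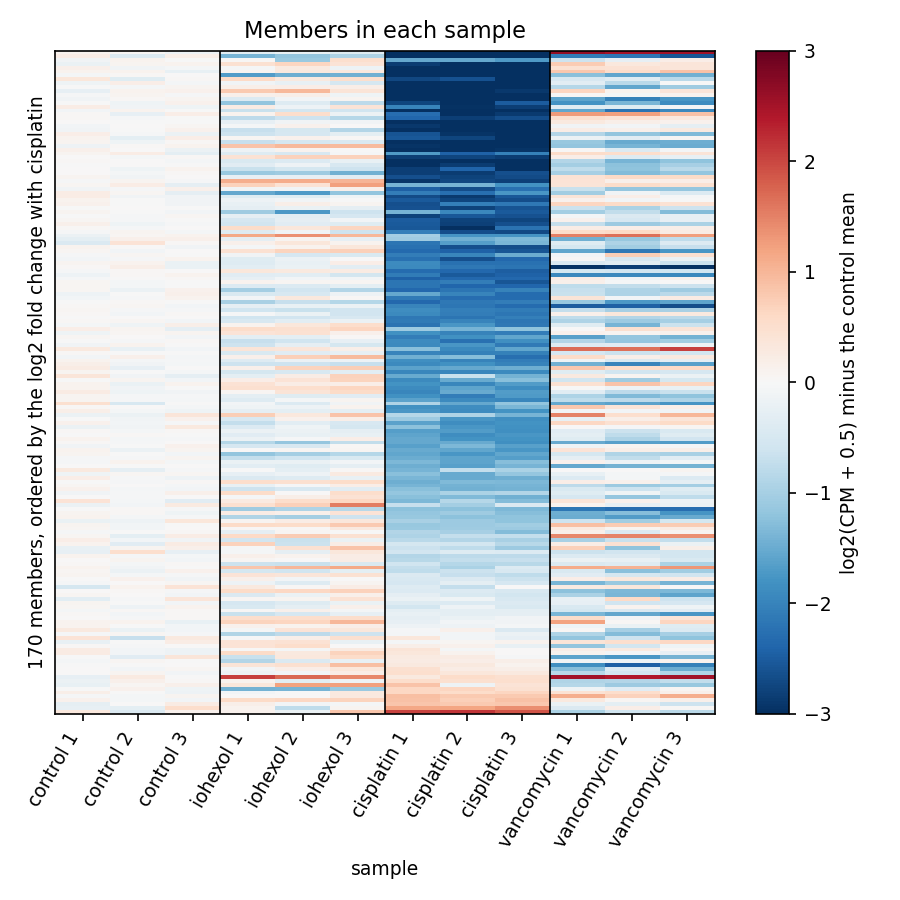
The 170 members tested with cisplatin are drawn as lines, ordered by their log2 fold change with cisplatin, and the 12 samples as columns. Colour gives log2(CPM + 0.5) minus the mean of the 3 control samples, cut at -3 and 3. The 3 cisplatin columns are blue over most of their height, while the iohexol and vancomycin columns mix blue and red.

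Cisplatin against control asks what the drug changed after 48 h. Of the 170 members tested, 142 fell and 10 rose at an adjusted p under 0.05, against 30.6% and 29.2% of all 15876 genes tested. With a log2 fold change beyond 1 in size as well, the definition of a DEG used here, 124 members were lower and 3 were higher, against backgrounds of 8.72% and 7.62%. The median log2 fold change was -1.90 (quartiles -2.68 and -0.87), beside 0.01 over all genes. These counts describe the members that passed the filter on low counts. Another floor was a mean of at least 50 counts over all 12 samples, which high counts in 1 group can still meet. Among the 141 members above it, 122 fell and 8 rose, and the median was -1.92. Of all 12368 genes tested above this floor, 35.9% fell and 29.7% rose.

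Over all members tested with cisplatin, 83.5% fell and 5.88% rose. The counts by list given below stand beside these shares, and differences between the lists were not tested. Most receptors and adhesion molecules fell, as most members did. Of 23 members on the list of adhesion and guidance receptors, 18 were tested, 17 fell and 1 rose, with a median log2 fold change of -2.42. PTPRG, a receptor tyrosine phosphatase (chr3:61561569-62297613), had 155, 152 and 144 CPM in the control samples and 18.3, 14.2 and 16.7 CPM with cisplatin. The groups were far apart, a 9.17-fold lower level (log2 fold change -3.20 ± 0.09 SE, adjusted p = 2.75e-14). The related phosphatases PTPRM (-2.41 ± 0.08), PTPRD (-2.11 ± 0.08), the longest member, and PTPRK (-1.10 ± 0.07) fell too. NEGR1, an adhesion protein held on the cell surface by a lipid anchor, went from 8.56, 5.33 and 8.15 CPM to 0.182, 0.185 and 0.118 CPM. All 3 cisplatin values were at or under the level that 3 counts stand for, and the fold change was -5.44 ± 0.35 (adjusted p = 5.72e-10). EPHB1, a receptor for ephrins that is not on the list, fell by 3.42 on the log2 scale and SEMA5A, a semaphorin that guides migrating cells, by 2.22.

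Genes of cell polarity and the cytoskeleton behaved less uniformly. On that list 19 of 20 members were tested, and 13 fell, 4 rose and 2 passed no test, with a median of -2.06. LPP, a LIM protein of focal adhesions (chr3:188153284-188890671), had 277, 258 and 262 CPM in control and 46.9, 38.3 and 39.1 CPM with cisplatin, a 6.42-fold lower level (-2.68 ± 0.08, adjusted p = 6.55e-14). PARD3, a scaffold of the complex that sets apical and basal sides in epithelia (chr10:34109560-34815325), had 206, 190 and 197 CPM in control and 42.7, 37.6 and 37.8 CPM with cisplatin. Its fold change was -2.33 ± 0.07 (adjusted p = 7.86e-14), and that of its relative PARD3B was -4.19 ± 0.13. SHANK2, a scaffold protein, fell 13.0-fold (-3.70 ± 0.12), and ANK2, which links membrane proteins to the spectrin skeleton, fell by 4.44 on the log2 scale.

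NCKAP5 (chr2:132671799-133568463) had 78.7, 83.5 and 82.0 CPM in control and 4.18, 4.49 and 2.72 CPM with cisplatin. No values overlapped, and the level was 21.5-fold lower (-4.42 ± 0.12, adjusted p = 3.09e-14).

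All 12 tested members of the 13 on the list of kinases, phosphodiesterases and GTPase regulators fell, with a median of -2.01. KALRN and DLC1, which also act on small GTPases and are not on that list, were not called lower. PRKCA, the alpha form of protein kinase C, went from 88.9, 89.8 and 89.2 CPM to 14.2, 12.5 and 14.5 CPM (-2.70 ± 0.08, adjusted p = 7.86e-14). AGAP1, which acts on Arf GTPases in endosome traffic, fell by 2.68, TBC1D5, a Rab regulator of endosomes, by 3.42, and DOCK1, an activator of Rac, by 2.03 on the log2 scale. PRKCE, another protein kinase C, had the smallest fall on the list, at -0.45 ± 0.09 (adjusted p = 0.000292).

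Matrix and glycosylation genes held the largest single fall. GPC6, a glypican, a heparan sulfate proteoglycan of the cell surface (chr13:93226842-94407401), had 31.0, 29.7 and 26.1 CPM in control and 0.121, 0.554 and 0.827 CPM with cisplatin. The raw counts were 428, 473 and 397 against 2, 9 and 14, and the level was 56.7-fold lower (-5.83 ± 0.24, adjusted p = 1.34e-12). SPOCK1, a secreted proteoglycan and the member with the highest control level per exon length (68.2 CPM per kilobase of exon), went from 450, 419 and 405 CPM to 109, 109 and 112 CPM (-1.95 ± 0.06, adjusted p = 7.86e-14). On the whole list of 12 members, 10 were tested, 8 fell and 1, GALNTL6, rose (0.52 ± 0.14).

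Ion transport genes fell in 10 of 12 tested, near the share over all members tested (83.5%). The 1 called higher was GRM5, a member only through the cisplatin samples. SLC4A4, the sodium bicarbonate cotransporter with which proximal tubule cells return bicarbonate to the blood (chr4:71062667-71572087), had 170, 140 and 148 CPM in control and 26.1, 21.5 and 24.0 CPM with cisplatin. The groups did not overlap, and the fold change was -2.68 ± 0.09 (adjusted p = 1.82e-13). KCNMA1, the large-conductance calcium-activated potassium channel, fell by 2.15 and CACNA2D3, an accessory calcium channel subunit, by 3.13 on the log2 scale.

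Transcription factors and chromatin regulators fell less, with a median of -1.02 over 16 tested, of which 13 fell and 1 rose. GLIS3, a zinc finger factor (-1.74 ± 0.08), SMYD3, a lysine methyltransferase (-2.15 ± 0.13), and SUPT3H, a subunit of SAGA-type coactivator complexes (-3.55 ± 0.29), were among those that fell. CREB5, a CRE-binding factor outside the list, had 152, 140 and 151 CPM in control and 126, 121 and 123 CPM with cisplatin, a small fall of 0.26 ± 0.06 (adjusted p = 0.00157) that was no longer called on library size alone (-0.04). HDAC9, a histone deacetylase, rose.

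The genes of common fragile sites numbered 12 members, of which 9 were tested, 7 fell and 2 rose, with a median of -1.18. NBEA, a protein of vesicle traffic, fell by 3.30 and RORA, a nuclear receptor, by 1.18 on the log2 scale. WWOX, an oxidoreductase gene in the fragile site FRA16D, had 3.12, 2.32 and 3.55 CPM in control and 1.33, 1.60 and 1.60 CPM with cisplatin (-0.98 ± 0.27, adjusted p = 0.00443). MACROD2, which removes ADP-ribose from proteins, had a fold change of -0.88 ± 0.33 with an adjusted p of 0.0283, lost under several alternatives (highest adjusted p = 0.11). The 2 called higher were DMD and DLG2, the latter a member only through the cisplatin samples. FHIT was not tested: it had 29 counts in all in the control group and 4 with cisplatin.

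The 10 members that rose with cisplatin were PCDH9, KIAA1217, HDAC9, NAV3, KALRN, GRM5, DMD, SYNE1, GALNTL6 and DLG2. GRM5 and DLG2 reached the floor of 10 counts in 3 samples only through the cisplatin samples, so a higher level there was a condition of their selection and their values are given as a description. They were also 2 of the 3 higher DEGs. PCDH9, a protocadherin (chr13:66302834-67230445), had 2.32, 1.19 and 1.97 CPM in control and 8.79, 9.60 and 7.86 CPM with cisplatin, a 4.81-fold higher level (2.27 ± 0.21, adjusted p = 7.96e-08). KIAA1217 (chr10:23694746-24547848) went from 22.8, 22.3 and 24.9 CPM to 43.8, 40.8 and 40.5 CPM (0.84 ± 0.09, adjusted p = 3.1e-07). In both genes all cisplatin samples lay above all control samples.

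DMD, which encodes dystrophin and has the second longest span (2242 kb, chrX:31097677-33339441), had 24.0, 25.1 and 22.2 CPM in control and 33.7, 30.1 and 29.1 CPM with cisplatin. The groups did not overlap, and the change was small (0.38 ± 0.10, adjusted p = 0.00264). SYNE1, which encodes the nuclear envelope protein nesprin-1, rose from 201, 202 and 207 CPM to 250, 250 and 220 CPM (0.24 ± 0.06, adjusted p = 0.00346), and this was not called when all 4 groups shared 1 fit. HDAC9 (0.60 ± 0.10), NAV3, a microtubule-associated protein (0.58 ± 0.09), and KALRN, an activator of small GTPases (0.84 ± 0.09), rose at adjusted p of 4.4e-05, 3.97e-05 and 1.99e-07. GRM5, a glutamate receptor, had 3, 3 and 11 counts in control and 23, 23 and 29 with cisplatin, and 50.4% of its exon length is shared with another gene. DLG2, a membrane scaffold, had 0.218, 0.376 and 0.526 CPM in control and 1.03, 0.985 and 1.00 CPM with cisplatin.

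**Figure D2:**
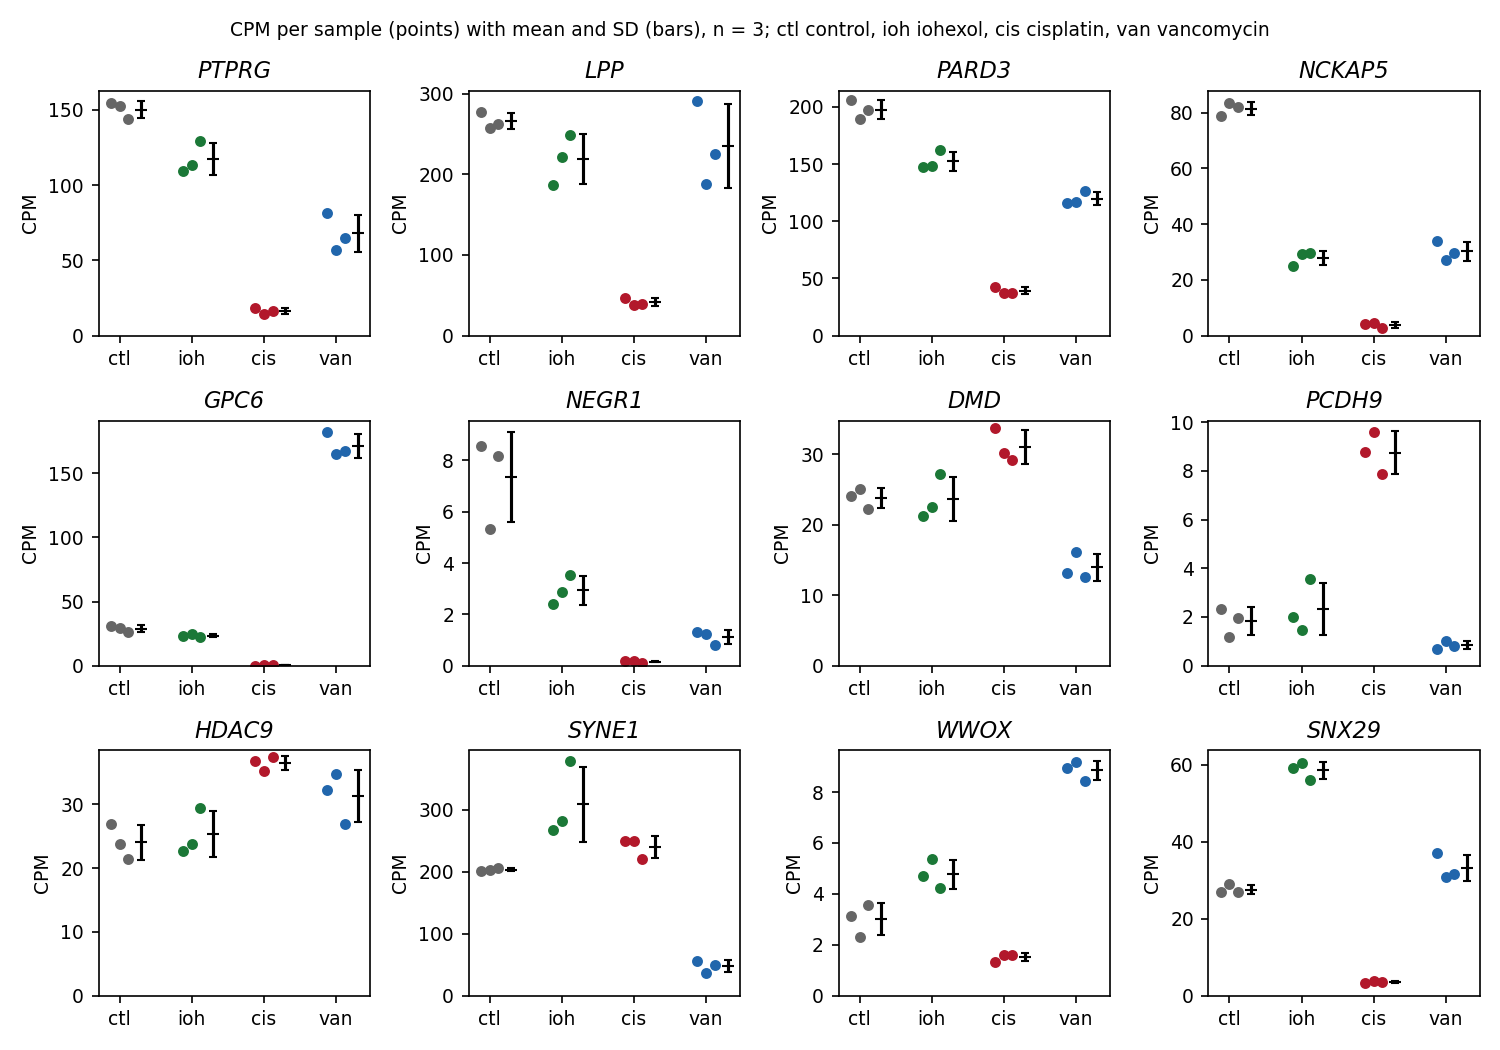
CPM of 12 members in each sample, on linear axes that start at 0, with the mean and SD of the 3 samples of each group as black bars. PTPRG, LPP, PARD3, NCKAP5, GPC6, NEGR1 and SNX29 were lowest with cisplatin, while DMD, PCDH9 and HDAC9 were highest there, GPC6 and WWOX were highest with vancomycin, and SNX29 was highest with iohexol.

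A further 18 members were tested with cisplatin and not called. DLC1, a regulator of small GTPases, was at 102, 108 and 101 CPM in control and 99.7, 97.3 and 91.1 CPM with cisplatin (-0.11 ± 0.07, adjusted p = 0.149), and its sign turned on library size alone (0.11). MECOM, a zinc finger factor, was at 0.16 ± 0.17 and EGLN3, an oxygen-sensing hydroxylase, at -0.12 ± 0.13. The 87 members on none of the role lists gave 64 that fell and 2 that rose of 78 tested. Another 24 members had too few counts to be tested with cisplatin, at most 44 counts over the 3 control samples. Of these, 19 had fewer counts with cisplatin than in control and 5 had more. ST6GALNAC3, a sialyltransferase, had 25 counts in control and 0 with cisplatin, and PRKG1, a cyclic GMP-dependent kinase, had 18 and 26.

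Span was then set against the change over all protein-coding genes tested. With cisplatin the median log2 fold change was 0.26 for genes under 10 kb, 0.09 from 10 to 50 kb, -0.18 from 50 to 100 kb, -0.42 from 100 to 200 kb and -0.89 from 200 to 500 kb. It was -1.97 from 500 kb to 1 Mb (147 genes) and -1.07 above 1 Mb (25 genes), so the medians fell with each class up to 1 Mb and the longest class lay above the one before it. The share called lower was 65.2% from 100 to 200 kb, 82.4% from 200 to 500 kb, 84.4% from 500 kb to 1 Mb and 72% above 1 Mb. Lower DEGs made up 43.8% from 200 to 500 kb and 75.5% from 500 kb to 1 Mb. Across the 12979 genes, the Spearman rank correlation between span and log2 fold change was -0.47 with cisplatin, -0.28 with vancomycin (13174 genes) and -0.04 with iohexol (13027 genes). For exon length in place of span, it was -0.30 with cisplatin, -0.24 with vancomycin and -0.01 with iohexol over the same genes. Genes are not independent replicates, and all values of a drug share the same 6 libraries, so these are descriptions.

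**Figure D3:**
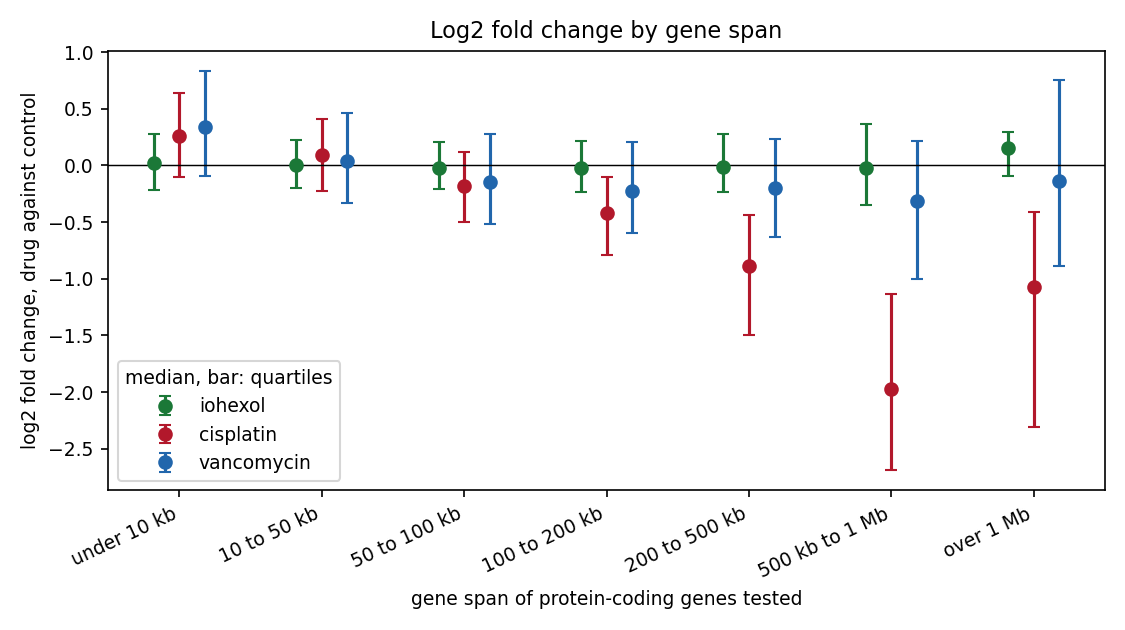
Median log2 fold change of the protein-coding genes tested, by class of gene span, for each drug against control. Points are medians and bars run from the lower to the upper quartile. The cisplatin medians go from 0.26 under 10 kb to -1.97 between 500 kb and 1 Mb, while the iohexol medians lie between -0.03 and 0.16.

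The medians by span were also read within limits of expression level and of exon length, both set after the values were seen. Among genes with a mean control level within the members' quartiles (2.60 to 41.8 CPM), the cisplatin medians were 0.30 under 10 kb, -0.91 from 200 to 500 kb, -2.05 from 500 kb to 1 Mb and -1.82 above 1 Mb. Genes shorter than 100 kb with exons at least as long as the members' median (11118.5 bp) had a median of -0.12, against -1.74 for the genes over 500 kb with exons of that length. This split sets only a lower bound, so exon lengths were not matched between these classes. Whether span, exon length or level had a part in the change was not tested. Within the members, span and log2 fold change with cisplatin were not related in rank (Spearman correlation -0.01, 170 genes).

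Many long genes also make short transcripts from internal starts or ends, and the shortest coding transcript in the basic GENCODE annotation gave another ordering. In members with a coding transcript shorter than 50 kb, the cisplatin median was -1.21, with 23 lower and 3 higher of 31. It was -1.38 from 50 to 100 kb (18 members), -1.72 from 100 to 250 kb (43 members) and -1.98 from 250 to 500 kb (32 lower and 0 higher of 34). Where even the shortest coding transcript spanned more than 500 kb, 43 of 44 were lower, 0 were higher and the median was -2.54. The 10 members that rose all have a coding transcript under 250 kb, such as 29.4 kb for PCDH9, 18.9 kb for SYNE1 and 145 kb for DMD. They include GRM5 and DLG2, which were selected only through the cisplatin samples. The classes under 250 kb held 31, 18 and 43 of the 170 members tested. Counts per gene do not show which transcript was present, and these classes were set after the values were seen.

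**Figure D4:**
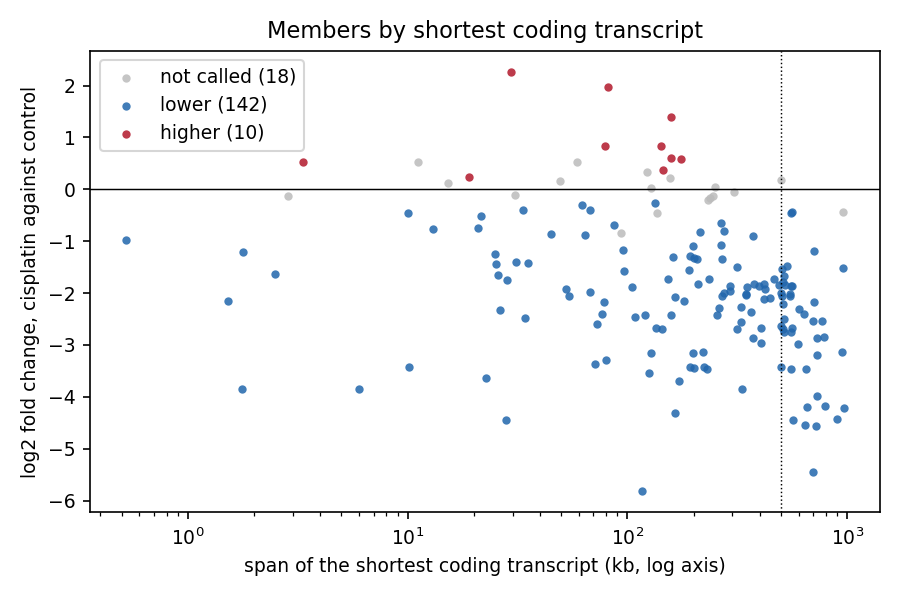
Log2 fold change with cisplatin of the 170 members tested (vertical axis) against the span of the shortest coding transcript (log axis, kb). The dotted line marks 500 kb. The 10 red points, members that rose, all lie left of the line, and right of it the points are blue except for 1 grey point at -0.44. The red points include GRM5 and DLG2, which were selected only through the cisplatin samples.

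The single member to the right that was not called was NAALADL2, at -0.44 ± 0.38 (adjusted p = 0.328). Genes just outside the 500 kb limit fell too. Of the 24 members within 25 kb above the limit, 20 were tested with cisplatin and had a median of -1.84. Of the 19 genes within 25 kb below it, 17 were tested and had a median of -1.52. CPQ, a peptidase spanning 504 kb, had a log2 fold change of -2.64, KCNAB1 at 501 kb -0.12, and, outside the limit, CACNA2D1 at 497 kb had -1.60 and DST at 497 kb -0.05.

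Vancomycin against control gave changes in both directions. Of 187 members tested, 84 fell and 32 rose, against 28.8% and 29.0% of all 15819 genes. Shorter protein-coding genes had shares near those of the members (44.9% and 17.1%). From 100 to 200 kb, 44.1% fell and 19.8% rose, with a median of -0.23. From 200 to 500 kb, 40.4% fell and 20.1% rose, with a median of -0.20. DEGs numbered 46 lower and 17 higher, against 7.65% and 10.8%. The median of the members was -0.28 and that of all genes -0.01. Among members with a mean of at least 50 counts, 74 fell and 21 rose of 141, with a median of -0.41. Of all 12373 genes tested above this floor, 33.0% fell and 30.3% rose.

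Of the adhesion and guidance receptors, 11 of 23 tested fell and 3 rose, shares near those over all members tested (44.9% and 17.1%), and the 3 include PTPRN2, which was selected through the vancomycin samples. ADGRL2, an adhesion G protein-coupled receptor (chr1:81306160-81992436), had 44.3, 45.6 and 43.3 CPM in control and 9.45, 8.78 and 8.68 CPM with vancomycin (-2.35 ± 0.12, adjusted p = 5.42e-14). Outside that list, ATRNL1, an attractin-like protein (chr10:115093365-115948992), went from 86.1, 87.6 and 80.6 CPM to 14.6, 15.1 and 13.0 CPM (-2.62 ± 0.11, adjusted p = 1.97e-15). In both the groups were wide apart. ADGRB3, an adhesion receptor on the list, fell 13.4-fold, and of the others ASTN2, an astrotactin, fell 4.08-fold, RELN, the secreted protein reelin, 3.67-fold, and NRG1, a ligand of ERBB receptors, 3.04-fold.

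SYNE1 was among the members that moved in opposite directions. Its levels were 56.8, 36.9 and 49.3 CPM with vancomycin against 201, 202 and 207 CPM in control (-2.13 ± 0.12, adjusted p = 2.21e-13). All vancomycin samples lay below all others, and the direct contrast of cisplatin against vancomycin was 2.33 ± 0.14 (adjusted p = 9.96e-12). DMD was at 13.2, 16.1 and 12.6 CPM with vancomycin (-0.81 ± 0.13, adjusted p = 8.49e-06), 1.15 ± 0.12 lower on the log2 scale than with cisplatin (adjusted p = 9.17e-08).

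GPC6 moved the other way. With vancomycin it was at 182, 165 and 167 CPM, with iohexol at 22.9, 24.6 and 22.3 CPM, and in control at 31.0, 29.7 and 26.1 CPM. The vancomycin samples were 5.75-fold above control (2.52 ± 0.10, adjusted p = 7.48e-16), the smallest p of any member that rose with that drug. Between vancomycin and cisplatin the level differed 335-fold in the fit of all 12 samples (adjusted p = 5.95e-17), the largest difference of any member between these drugs.

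ANK3, the membrane anchor ankyrin-G, was scarce in control and went from 2, 9 and 11 counts to 59, 55 and 71 counts (2.95 ± 0.38, adjusted p = 4.01e-07). Unlike ANK3, 8 members reached the floor of 10 counts in 3 samples only through the vancomycin samples, and 5 of them were called higher, which their selection favoured. Among these, TSHZ2, a zinc finger factor, had 0.0725, 0.251 and 0.197 CPM in control and 2.00, 2.23 and 2.16 CPM with vancomycin. PTPRN2, a receptor phosphatase of secretory vesicles, had 0 counts in every control sample and 13, 19 and 13 counts with vancomycin.

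PHACTR1, which binds actin and protein phosphatase 1, rose from 1.45, 2.26 and 1.78 CPM to 12.8, 11.6 and 12.8 CPM with vancomycin (2.70 ± 0.20, adjusted p = 5.26e-11), and SORCS2, a sorting receptor, rose 3.72-fold. WWOX rose from 3.12, 2.32 and 3.55 CPM to 8.95, 9.18 and 8.44 CPM (1.52 ± 0.20, adjusted p = 6.48e-07). In each of these genes the vancomycin samples lay above all control samples. On the fragile site list 4 of 11 tested rose with vancomycin and 1, DMD, fell. Over all members tested 17.1% rose and 44.9% fell, and over all genes 29.0% and 28.8%. The difference between the list and the other members was not tested.

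**Figure D5:**
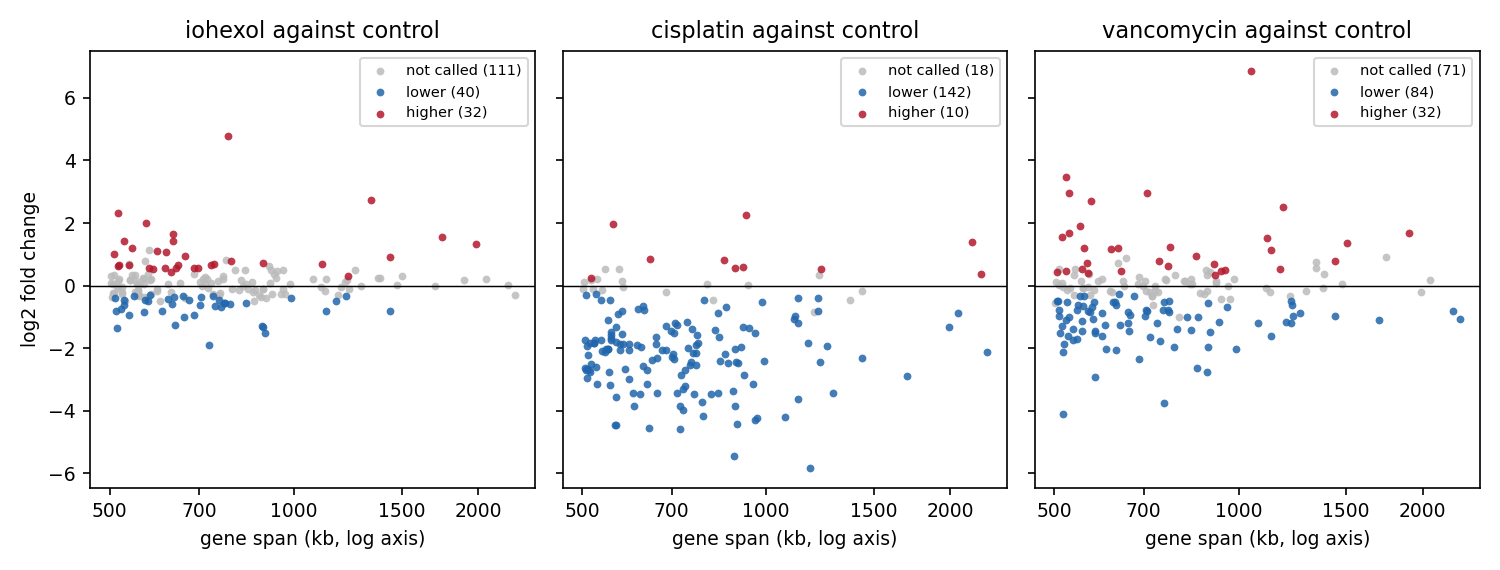
Log2 fold change of each member tested against its gene span (log axis, kb), with 1 panel per drug. Blue points fell, red points rose and grey points were not called, with their numbers in the legends: 142 lower and 10 higher with cisplatin, 84 and 32 with vancomycin, and 40 and 32 with iohexol.

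Iohexol against control gave the fewest calls among the members. Of 183 tested, 40 fell and 32 rose, against 9.77% and 11.2% of all 15657 genes. DEGs numbered 7 lower and 13 higher, against 1.25% and 4.02%, and the median was 0.01, as over all genes. The count that fell was 26 without iohexol replicate 1, and the count that rose was 20 without control replicate 3. The 13 higher DEGs became 8 when control replicate 1, 2 or 3 was left out. FSTL5 and RIMS1, 2 of the 13, were members only through the iohexol samples.

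Among those that fell, NAV3 had 28.6, 31.5 and 26.4 CPM in control and 10.4, 10.6 and 13.0 CPM with iohexol (-1.33 ± 0.13, adjusted p = 3.33e-05). With cisplatin the same gene rose, and the contrast between both drugs was 1.93 ± 0.13 (adjusted p = 1.27e-10). PDE10A, which breaks down cyclic nucleotides, had 121, 113 and 107 CPM in control and 50.1, 55.3 and 62.7 CPM with iohexol (-1.003 ± 0.10, adjusted p = 4.14e-05). DLC1 (-0.76 ± 0.10), SEMA5A (-0.82 ± 0.10) and NRG1 (-0.82 ± 0.11) fell as well.

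SNX29, a sorting nexin (chr16:11976737-12574289), rose with iohexol, from 26.8, 29.0 and 26.8 CPM to 59.1, 60.5 and 56.0 CPM (1.10 ± 0.10, adjusted p = 1.26e-05). With cisplatin it was at 3.21, 3.76 and 3.54 CPM, a 16.7-fold lower level than with iohexol (adjusted p = 2.52e-15). EPHB1 rose with iohexol from 23.8, 27.0 and 28.3 CPM to 47.7, 52.2 and 51.2 CPM (0.95 ± 0.11, adjusted p = 7.62e-05), while its levels were 2.97, 2.09 and 2.30 CPM with cisplatin and 11.3, 9.72 and 9.05 CPM with vancomycin. FSTL5, a secreted follistatin-like protein, had 2, 0 and 0 counts in control and 17, 21 and 27 with iohexol, the samples through which it was selected, and 11.6% of its exon length is shared with another gene.

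The members that were DEGs in the same direction with all 3 drugs, which share their control samples, were NCKAP5, NEGR1, SLIT3 and SLC8A1. How many of all genes met this was not counted, so it cannot be said whether these are few or many. Lower DEGs made up 1.25% of all genes with iohexol, 8.72% with cisplatin and 7.65% with vancomycin. NCKAP5 had log2 fold changes of -1.52 ± 0.10 with iohexol, -4.42 ± 0.12 with cisplatin and -1.47 ± 0.11 with vancomycin. NEGR1 had -1.30 ± 0.23, -5.44 ± 0.35 and -2.76 ± 0.27. For SLIT3, a secreted guidance ligand, the values were -1.26 ± 0.16, -3.13 ± 0.17 and -1.26 ± 0.16. SLC8A1, the sodium-calcium exchanger, stood at -1.34 ± 0.35, -2.69 ± 0.41 and -1.31 ± 0.31, and its iohexol call was lost without iohexol replicate 1 (adjusted p = 0.052) or 2 (-1.01, adjusted p = 0.056). In each of the 4 genes the cisplatin value was the most negative. NCKAP5 was 7.37-fold lower with cisplatin than with iohexol (adjusted p = 3.64e-12) and 7.95-fold lower than with vancomycin (adjusted p = 1.21e-12), while vancomycin and iohexol differed by 0.11 ± 0.12 (adjusted p = 0.46).

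The drugs were also set against each other in the fit of all 12 samples, in which 192 members were tested. Cisplatin against iohexol gave 154 lower and 10 higher members (27.9% and 26.0% of all 17073 genes), with a median of -1.80. Cisplatin against vancomycin gave 140 lower and 21 higher (34.7% and 30.0%), with a median of -1.61. Vancomycin against iohexol gave 80 lower and 35 higher (27.6% and 29.0%), with a median of -0.28. On library size alone the higher counts were 32 for cisplatin against vancomycin and 21 for vancomycin against iohexol. PTPRG differed in each: it was 7.16-fold lower with cisplatin than with iohexol, 4.14-fold lower with cisplatin than with vancomycin and 1.73-fold lower with vancomycin than with iohexol (adjusted p = 3.56e-13, 1.71e-11 and 5.30e-06).

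The genes of transcription elongation and DNA topology, on which long genes depend, were read in the same fits, 54 of them tested. With cisplatin 14 fell and 22 rose, beside 30.6% and 29.2% of all genes. POLR2A, the catalytic subunit of RNA polymerase II (1.16 ± 0.05), HEXIM1, an inhibitor of the elongation kinase P-TEFb (1.17 ± 0.08), and ELL2, an elongation factor (1.06 ± 0.09), rose, while AFF1, a scaffold of the super elongation complex, fell by 1.13 ± 0.06. TOP1, which relaxes DNA ahead of the polymerase, rose by 0.45 ± 0.06. Of the other topoisomerases on the list, TOP3A rose by 0.65 ± 0.09, TOP2B fell by 0.37 ± 0.06 and TOP2A was not called (-0.07 ± 0.06). With vancomycin 22 fell and 11 rose (28.8% and 29.0% of all genes), among them ELL2 (1.72 ± 0.11) upward and TOP2A, the topoisomerase of dividing cells (-1.31 ± 0.09), downward, and with iohexol 5 fell and 2 rose (9.77% and 11.2% of all genes). Whether these changes had a part in those of the long genes was not tested.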

How the data were processed

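RNA of HK-2 cells was sequenced in 12 samples after poly(A) selection and NEBNext library preparation, per the labels. The authors deposited whole-number counts of reads per gene, without normalization, for 58735 genes. The submitters' processing notes name CASAVA 1.8, fastp, HISAT2 2.0.5, featureCounts 1.5.0-p3 and DESeq2 1.20.0, with no order. The annotation release and strand setting are not given in the sources used here. All 194 members had the same coordinates as in GENCODE release 29 (GRCh38), from which exons and transcripts were taken. Names converted to dates in the table were replaced through the gene identifier (1 member, MARCHF1).

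The test was edgeR's quasi-likelihood test with TMM factors (edgeR 4.0.16, R 4.3.3). Each drug and the control samples formed their own fit, restricted to genes kept by filterByExpr (10 counts, total 15). For drug against drug, all 12 samples entered 1 model. Benjamini-Hochberg adjustment covered every gene tested, and called means an adjusted p under 0.05. The standard error is the log2 fold change divided by the square root of F. In simulated data for cisplatin against control, 95 of 100 genes changed by 1 on the log2 scale and 100 of 100 changed by 2 were recovered among 15266 genes, with 11 false calls. The simulation gave all genes a common spread and changed a small share of genes, balanced up and down, none of them scarce. It therefore does not cover scarce members, genes of wider spread or a fall of many genes at once.

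Named genes were, for each drug, the 10 members that fell and the 10 that rose with the smallest p, the 10 longest, the 8 with the highest control level per exon length, the members that were DEGs with all 3 drugs, those near the 500 kb limit, and 2 to 4 per role list. The genes not called or not tested that are named, ANK2, PTPRN2 and the genes of the elongation list were chosen after their values were seen. Members and lists were chosen with earlier results of these data known. The classes of shortest coding transcript, the band of expression level and the split by exon length were set after values were seen. Shared sequence was looked for with 32-base words, and IQCJ-SCHIP1, ZBTB20, FOXP1 and RBMS3 had more than 10% of their exon words elsewhere. Alternatives were DESeq2 1.42.0, limma-voom (limma 3.58.1), other scaling and filters, a replicate block and leaving out each sample. Some members are not reported here by name. Promoters came from RefSeq (GRCh38.p14). Figures were drawn with matplotlib 3.10.9.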

Additional observations from a re-analysis of the deposited data

How the results depend on the processing

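For the members, the counts lower with cisplatin, the counts lower with vancomycin and the counts for cisplatin against iohexol stayed within 1.5 times under every alternative tried, and no called value changed its sign. The iohexol median, 0.01 in the main result, and the uncalled cisplatin value of DLC1 did change sign. On library size alone, which shifted the cisplatin median of all genes to 0.23, the members' medians were 0.077 with iohexol, -1.69 with cisplatin and -0.35 with vancomycin, 5 members were higher DEGs with cisplatin, 32 were higher and 20 higher DEGs with cisplatin against vancomycin, and 21 were higher with vancomycin against iohexol. With at least 10 counts required in every sample, the higher DEGs were 7 with iohexol, 1 with cisplatin and 8 with vancomycin, and the cisplatin median was -1.77; this filter removes genes that fell far. With a mean of at least 50 counts over all 12 samples, a floor chosen after seeing the data, the medians were -0.091 with iohexol and -0.41 with vancomycin. Leaving out 1 sample at a time gave, with iohexol, 26 to 50 lower and 20 to 29 higher members, 8 to 9 higher DEGs and a median between -0.094 and 0.039, and medians between -1.97 and -1.85 with cisplatin and between -0.35 and -0.23 with vancomycin. The cause of these differences was not tested.

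The replicate numbers did not pair the samples (mean correlation of deviations -0.02 over 18 same-numbered pairs and 0.01 over 36 others). With the replicate block, 28 members were lower and 23 higher with iohexol, 142 and 10 with cisplatin, and 85 and 34 with vancomycin.

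Of 155 named gene and drug pairs that were called, 133 were called under all alternatives and 22 were not called under at least 1, and none reversed. The 22 included scarce members such as ROBO2, EYS and MACROD2 and more abundant ones such as PTPRG and DOCK1 with iohexol. At this depth, 24 members could not be tested with cisplatin, 11 with iohexol and 7 with vancomycin.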
